A study of Mus musculus with 2 samples.

Results

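The Pde4 genes (Pde4a, Pde4b, Pde4c and Pde4d) were examined in chromatin of newborn mouse lung, to see which of their alternative promoters lay in open DNA and where other open sites lay around them. The 4 genes were taken by name from the 21938 protein-coding genes of the GENCODE mouse annotation on assembly mm10. They were chosen by name with peak counts of these data in view, and the peaks themselves decided which promoters were called open, so every value is a description and none was tested. DNase-seq cuts open chromatin with the enzyme DNase I, and regions with many cuts are reported as peaks and, at a coarser scale, as hotspots. The study held 1 group, whole lung of B6NCrl mice at postnatal day 0 with no treatment named, in 2 biological replicates. The labels give each replicate its own biosample and the same donor entry for both, and leave unsaid whether they were different animals or pools. Sex was not collected.

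Enzymes of the PDE4 family hydrolyse cyclic AMP, the second messenger made by adenylyl cyclases when receptors such as the beta-adrenergic and prostaglandin receptors are activated. Each Pde4 gene has several promoters. Those at the 5′ end give long forms with both upstream conserved regions, UCR1 and UCR2, which carry regulatory sites, and those further 3′ give short forms that lack UCR1 but keep the catalytic domain. In the lung, cyclic AMP relaxes airway and vascular smooth muscle and restrains inflammatory cells, and PDE4 inhibitors are used against obstructive lung disease.

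The genes had 45 transcripts, whose transcription start sites (TSSs) were joined into 31 promoters where they lay within 500 bp of each other. Promoters are numbered from 5′ to 3′ within each gene. A promoter is called open where a shared site, made of peaks of both replicates that overlap by at least 1 bp, lay within 500 bp of one of its TSSs. Each peak carries a whole number set by the authors, here called its score, which ran from 2 to 150 in the first replicate and from 1 to 148 in the other. The sources used here do not say what it measures. Below, scores are written with replicate 1 first. Hotspots carry −log10 of a q-value that stops at 100. A form is called short where the coding sequence of the promoter's longest coding transcript enters the coding exons shared between promoters at number 5 or later, and long otherwise. This rule uses exon order only and sets no lowest length. A coding sequence of 161 residues at Pde4b promoter 4 thus counts as long, and one of 206 residues at Pde4d promoter 15 as short.

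Sequences of promoter and distal sites that the results turn on are printed here. All are from the forward strand of GRCm38 (mm10), on which the 4 genes lie, and the genome sequence is the RefSeq copy. They show a 150 bp window at the centre of a site, trimmed to bases outside annotated exons where more than 30 bases were exonic. Capitals mark any of 7 promoter motifs found on either strand, namely the cyclic AMP response element TGACGTCA, the shorter TGACG within it, the CCAAT box, the GC box GGGCGG, the TATA box TATAAA, the ETS motif CCGGAAG and the NRF1 palindrome. The first 4 lines are from the strongest open promoter of each gene, the next 2 from further strong Pde4d promoters, and the last gives the bases before Pde4b promoter 1, which had no peak.
Pde4a promoter 3, chr9:21184025-21184100: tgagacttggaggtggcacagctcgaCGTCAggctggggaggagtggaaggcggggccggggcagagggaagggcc
Pde4b promoter 6, chr4:102569995-102570094: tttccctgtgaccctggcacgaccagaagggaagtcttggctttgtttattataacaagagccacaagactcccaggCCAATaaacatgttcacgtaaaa
Pde4c promoter 1, chr8:70723595-70723744: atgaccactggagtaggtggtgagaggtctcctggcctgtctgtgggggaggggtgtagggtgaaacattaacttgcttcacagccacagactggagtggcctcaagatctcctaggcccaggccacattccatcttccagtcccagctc
Pde4d promoter 8, chr13:109632595-109632744: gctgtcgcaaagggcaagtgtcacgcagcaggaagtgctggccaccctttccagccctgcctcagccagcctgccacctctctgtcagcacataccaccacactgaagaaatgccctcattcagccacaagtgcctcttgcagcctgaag
Pde4d promoter 5, chr13:109260315-109260464: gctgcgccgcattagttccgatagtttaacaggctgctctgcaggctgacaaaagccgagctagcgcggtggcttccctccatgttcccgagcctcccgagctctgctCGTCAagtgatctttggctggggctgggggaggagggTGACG
Pde4d promoter 11, chr13:109902915-109903064: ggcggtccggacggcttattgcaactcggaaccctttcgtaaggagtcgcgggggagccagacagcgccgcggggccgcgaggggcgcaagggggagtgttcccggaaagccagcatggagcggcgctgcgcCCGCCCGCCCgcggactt
Pde4b promoter 1, not open, chr4:102087468-102087542: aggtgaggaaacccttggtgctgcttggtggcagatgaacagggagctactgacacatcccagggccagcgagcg

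The libraries differed in the size of their peak lists. Replicate 1 held 276480 peaks on the 21 chromosomes used and replicate 2 held 188498, and 59.5% of the first and 87.6% of the second overlapped a peak of the other list. The lists gave 161159 shared sites. Sequencing depth was not given. Replicate 1 lists 2 instrument models and replicate 2 lists none, and the part of this difference in any result was not tested. All 8 lung markers examined, among them the surfactant genes Sftpb and Sftpc and the lung factor Nkx2-1, had an open promoter. So did 2 of 6 markers of other tissues, the liver gene Alb and the germ cell gene Dazl. Whole lung mixes many cell types, so a site open in few cells and a site weakly open in many cannot be told apart.

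All 4 genes had at least 1 open promoter, as did 68.5% of protein-coding genes. Of their 31 promoters, 19 were open, 1 had a peak in replicate 1 alone and 11 had no peak in either replicate. Over all protein-coding genes 39.4% of 52546 promoters were open, and in the 4239 genes with at least 4 promoters 33.6% were. A peak of replicate 1 lay at 20 of the 31, beside 45% of all promoters, and one of replicate 2 at 19, beside 40.4%. Nothing is read from these shares, because the genes were picked with these peaks known. The 11 promoters without a peak also had no hotspot within 500 bp in either library. Of the 19 open promoters, 10 lay under hotspots at the upper limit of 100 in both replicates, 5 in 1 replicate and 4 in neither.

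Long-form promoters were open in 11 of 16 cases, short-form promoters in 4 of 8, and promoters with no coding transcript in 4 of 7. Most open promoters of the family scored below the median of promoters with a peak over all protein-coding genes, whatever their number of promoters. No such median was taken for genes with at least 4 promoters alone. Over all promoters with a peak, the strongest score had a median of 104 in the first library and 88 in the other. Of the 19 open Pde4 promoters, 3 reached the first value and 1 the second. These were Pde4b promoter 6 and Pde4d promoters 5 and 8 in replicate 1, and Pde4b promoter 6 in replicate 2. The strongest open promoter was not the most 5′ one in Pde4a, Pde4b and Pde4d, beside 27.1% of genes with at least 4 promoters and 1 open.

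**Figure D1:**
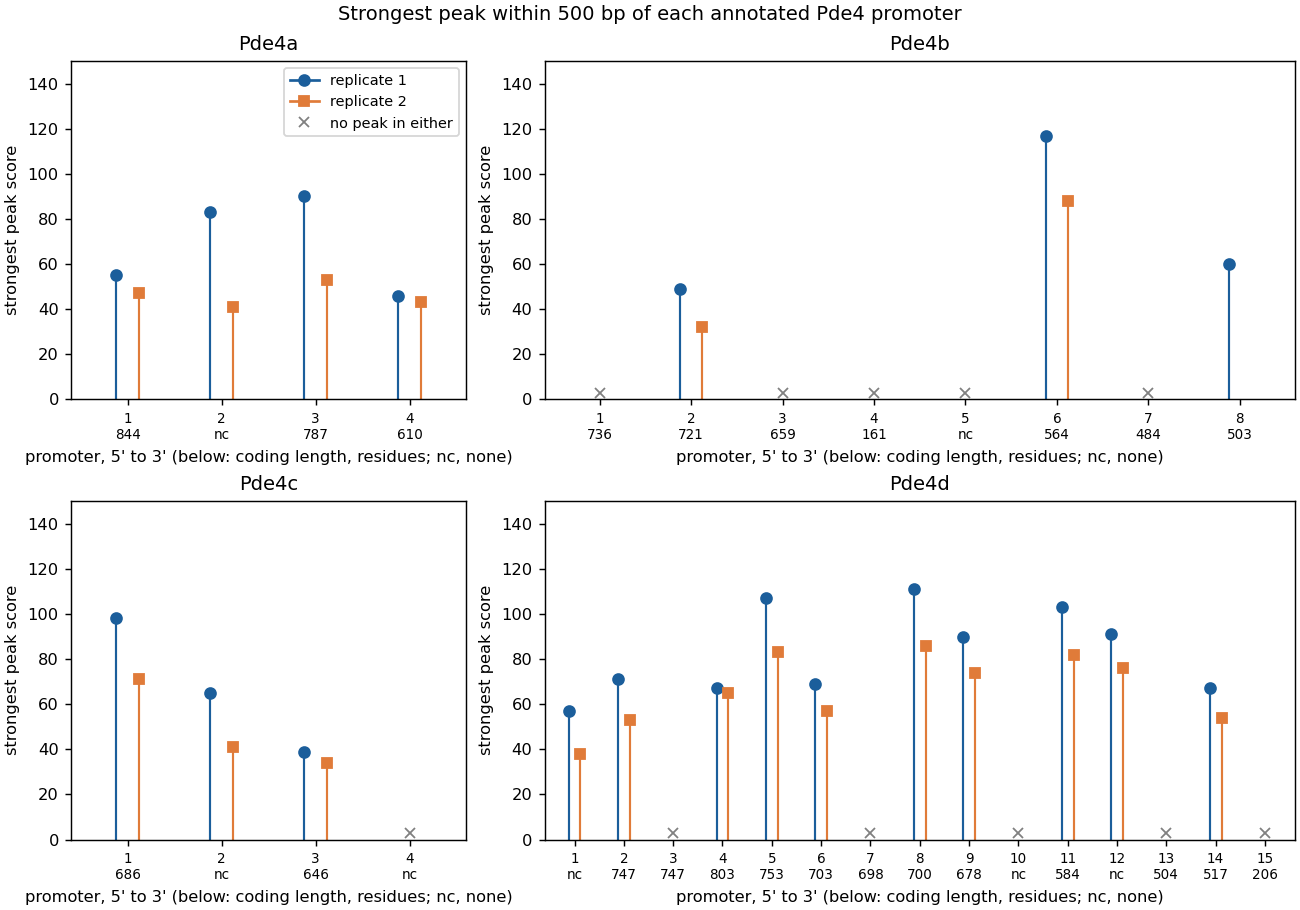
Strongest peak score (vertical axis, the authors' score, no unit) within 500 bp of each promoter (horizontal axis, numbered 5′ to 3′, with coding length in residues or nc where no coding transcript starts). Circles are replicate 1, squares replicate 2 and crosses promoters with no peak in either. Pde4a has peaks of both replicates at all 4 promoters, Pde4b is strongest at promoter 6 (117 and 88), and Pde4d is open at 10 of 15 promoters.

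Pde4a (ENSMUSG00000032177.17, chr9:21165714-21213248, 47.5 kb) had peaks of both replicates at all 4 of its promoters. Among genes with at least 4 promoters, 1.16% had every promoter open. That all were open depends on the settings, since 3 of 4 were with a window of 250 bp or where the site had to cover the TSS, 2 of 4 with peaks above the median score, and 4 of 6 with RefSeq TSSs. Promoter 1, which starts the longest form of 844 residues, scored 55 and 47, but its sites lay 409 and 462 bp from the TSS. Promoter 2, which starts no coding transcript, scored 83 and 41, a log2 ratio of 1.02, the widest of the 27 promoter sites. Promoter 3, the start of a long form of 787 residues, was the strongest with 90 and 53 and its site covered the TSS. The short-form promoter 4 (610 residues) was the weakest in replicate 1, with 46 and 43. In replicate 1 promoters 2 and 3 stood above promoters 1 and 4, whereas in replicate 2 all 4 lay between 41 and 53 and their order differed.

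Pde4b (ENSMUSG00000028525.16, chr4:102087543-102607259, 519.7 kb) was open at 2 of 8 promoters. The strongest was promoter 6, where the short form of 564 residues starts. Of the long-form promoters, numbers 1, 3 and 4, for forms of 736, 659 and 161 residues, had no peak in either library. Promoter 2, for a form of 721 residues, was the single open one among them and scored 49 and 32. In genes with at least 4 promoters, the most 5′ one was open in 82.7%, and in Pde4b it was not. The nearest shared site to promoter 1 lay 14595 bp away, with scores of 35 and 24.

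Pde4b promoter 6 held a pair of shared sites. The site covering the TSS, whose upstream bases are printed above, scored 98 and 88. The other lay 241 bp inside the gene at chr4:102570336-102570505, in the first exon of the short form, and scored 117 and 86. The highest hotspot value there was at the limit of 100 in both libraries, and the hotspots had a summed width of 1158 and 837 bp. Promoter 6 had the highest promoter score of the family in both replicates, and the 300 bp around its TSS held only 2 CpG dinucleotides. Further 3′, promoter 7 (484 residues) had no peak and promoter 8 (503 residues) had a peak of 60 in replicate 1 alone.

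Pde4c (ENSMUSG00000031842.14, chr8:70723720-70751186, 27.5 kb) was open at 3 of 4 promoters. Promoter 1, for the longest form of 686 residues, was the strongest with 98 and 71. Its site covered the TSS of a coding transcript of 178 residues and not that of the longest form. The printed window of this site holds none of the 7 motifs and no CpG. Promoter 2 has no coding transcript and scored 65 and 41. Promoter 3, for a form of 646 residues, scored 39 and 34, the lowest of the open promoters in replicate 1. Promoter 4, which starts no coding transcript, had no peak. Both replicates ranked the open promoters in the same order, falling from 5′ to 3′.

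Pde4d (ENSMUSG00000021699.17, chr13:108449948-109953461, 1504 kb) was open at 10 of 15 promoters. Its strongest were spread over long and short forms. Among all protein-coding genes 10 was the highest number of open promoters, and 3 genes (0.0137%) had it. The other 2 were Nedd4l, a ubiquitin ligase gene, with 10 of 18 promoters, and Tns1, which encodes the focal adhesion protein tensin, with 10 of 14. The count rests on the annotation, since with RefSeq TSSs 3 of 7 Pde4d promoters were open. It also rests on the 500 bp window, since a shared site covered the TSS itself in 3 of the 15.

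Of the 8 long-form promoters of Pde4d, 6 were open. Promoter 8, for a form of 700 residues, was the strongest in both replicates, with 111 and 86 and a site 35 bp from the TSS. Promoter 5 (753 residues) scored 107 and 83. The hotspots within 500 bp of its TSS had a summed width of 1307 bp in replicate 1, the largest of the Pde4 promoters. Promoter 9 (678 residues) scored 90 and 74. These 3 lay in the middle and 3′ portion of the gene, 810.7 to 1236 kb from its 5′ end. Promoters 2 (747 residues), 4 (803 residues) and 6 (703 residues) were weaker. Their scores were 71 and 53 at promoter 2. They were 67 and 65 at promoter 4, nearly equal between the replicates. At promoter 6 they were 69 and 57. Promoters 3 (747 residues) and 7 (698 residues) had no peak.

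Among the 4 short-form promoters of Pde4d, promoter 11 (584 residues) was open over 3 shared sites. Their scores were 103 and 82, 102 and 81, and 60 and 55. It was the family's richest promoter in CpG, with 44 in 300 bp and a GC content of 73.0%. Promoter 14 (517 residues) scored 67 and 54 with the site over the TSS. Promoters 13 (504 residues) and 15 (206 residues) had no peak. Of the promoters without a coding transcript, promoter 1 scored 57 and 38 and promoter 12 scored 91 and 76, and promoter 10 had no peak. Pde4d therefore had an open promoter for long and for short forms, with scores of 111 and 86 at the strongest long-form and 103 and 82 at the strongest short-form promoter.

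Strongest sites lay more than 250 bp from the promoter's nearest TSS at 5 of the 19 open promoters and covered it at 7. Those nearest the 500 bp limit on the inside were Pde4d promoter 6 at 478 bp, Pde4a promoter 1 with 462 bp for its second site, and Pde4d promoter 12 at 406 bp. Just outside it were Pde4b promoter 8, whose nearest shared site lay at 758 bp with scores of 93 and 51, Pde4b promoter 7 at 1238 bp from the same site, and Pde4d promoter 10 at 1255 bp from a site of 17 and 15. At the strongest site replicate 1 scored higher at all 19 open promoters, and over all 27 promoter sites at 26. The exception was the second site of Pde4d promoter 9, with 72 and 74. The median log2 ratio of replicate 1 to replicate 2 over all shared sites of the genome was 0.45, so higher scores in replicate 1 were common to the whole list.

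The base composition of the promoters was not used to call them open. In the 300 bp from 250 before to 50 after the first TSS, the 19 open promoters had a median GC content of 53.7% and a median of 8 CpG, with a range of 2 to 44. The 12 others had medians of 45.5% and 5, with 1 to 13 CpG. Open promoters of all protein-coding genes had a median of 16 CpG and all promoters a median of 5. The GC box GGGCGG was found in 10 of the 19 open and in 1 of the 12 other Pde4 promoters, beside 25.4% of all and 52.4% of all open promoters. The one promoter with the motif and no peak was Pde4b promoter 1, where it lies outside the bases printed above. CCAAT was found in 6 of 19 and 6 of 12, beside 35.2% of all promoters.

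The letters of the cyclic AMP response element were also searched for. The full element TGACGTCA was found in none of the 31, beside 1.32% of all promoters, and the NRF1 palindrome in none, beside 0.605%. The shorter TGACG, which is contained in the full element, was found in 2 of 19 open and 4 of 12 other promoters. It was found in 17.9% of all promoters and 26.5% of all open ones. One of the open ones was Pde4d promoter 5, where it occurred at 2 positions. The other was Pde4a promoter 3. TATAAA was found in 1 of 19 and 1 of 12, beside 15.0% of all and 7.99% of all open promoters. CCGGAAG was found in 1 of 19 and 0 of 12, beside 6.09% of all and 12.4% of all open promoters. Absence of a motif says only that these letters are not in this window.

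Around the genes, within 50 kb of each body, there were 27 shared sites for Pde4a, 48 for Pde4b, 35 for Pde4c and 118 for Pde4d. Of these 6, 4, 3 and 14 were sites at the gene's own promoters. Neighbouring genes owned 7 of the sites at Pde4a and 16 at Pde4c, both of which lie among closely packed genes, beside 0 at Pde4b and 1 at Pde4d. Distal sites, over 1000 bp from any annotated TSS, numbered 13, 42, 14 and 101. All but 12 of the Pde4b sites and 5 of the Pde4d sites lay inside the gene body, whereas 4 of 13 did for Pde4a and 4 of 14 for Pde4c. Replicate 1 had 45, 82, 70 and 193 peaks in these regions and replicate 2 had 30, 51, 36 and 139. The share of replicate 1 peaks that overlapped replicate 2 was lowest at Pde4c, with 35 of 70 (exact binomial 95% interval 37.8 to 62.2%, counting error only). It was 61.1% at Pde4d (53.9 to 68.1%). Over all replicate 1 peaks the share was 59.5%, which lies within both intervals, so no difference is read from them.

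Pde4d had among the highest counts of distal sites, and 5 protein-coding genes (0.0228%) had at least its 101. The others were the gene model Gm20388 with 497 over 4435 kb, the fibroblast growth factor receptor gene Fgfr2 with 255 over 2961 kb, and Gm37240 and Lrmda with 110 each. Long genes have more room, so the 100 protein-coding genes nearest in length were set beside each member. Those of Pde4d ran from 774.9 to 2271 kb in length and those of Pde4b from 464.2 to 579.9 kb. The median was 26 distal sites for Pde4d, with a highest of 110. It was 20.5 for Pde4b, with a highest of 97. The medians were 10 for Pde4a and 8 for Pde4c. Per 100 kb of body and flanks, the Pde4d neighbours had a median of 2.02 and Pde4d 6.30, and the Pde4b neighbours 3.14 and Pde4b 6.78. Over all protein-coding genes the median was 5.84. Pde4a and Pde4c had 8.81 and 11.0, beside 6.76 and 6.28 in their neighbours.

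**Figure D2:**
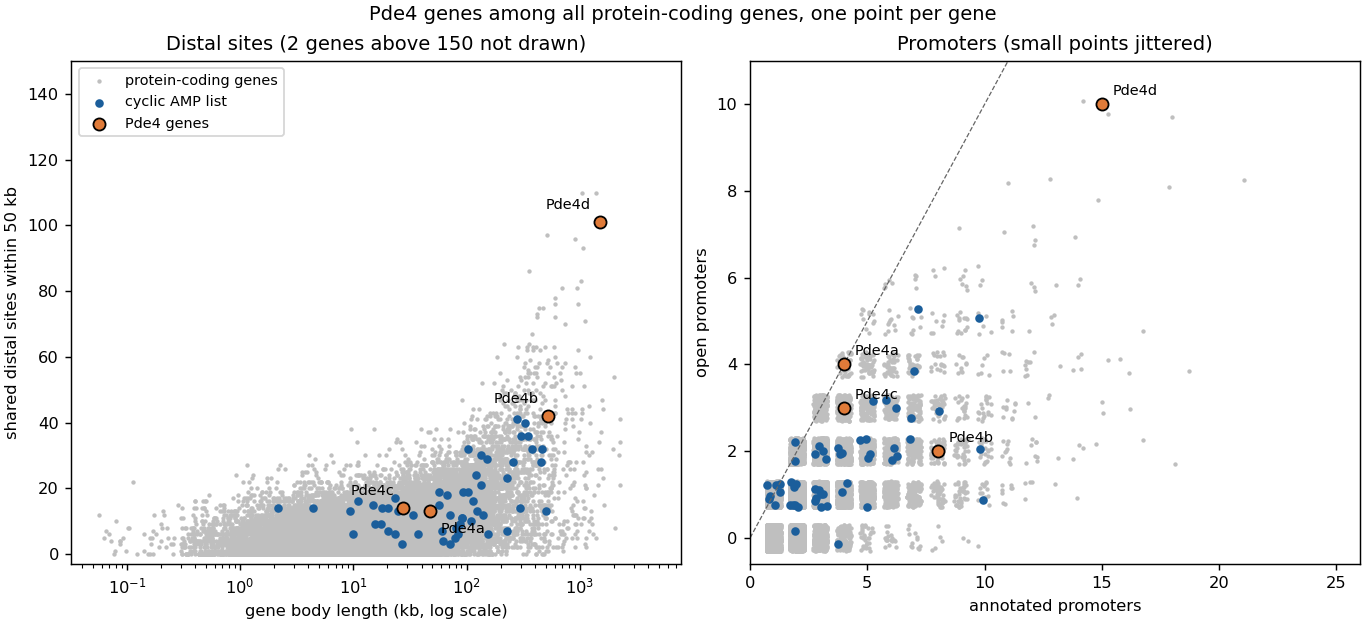
All protein-coding genes as grey points, the cyclic AMP list as blue points and the Pde4 genes as labelled orange points. Left, shared distal sites within 50 kb against gene body length in kb (log scale). Right, open against annotated promoters, with a dashed line where all are open. Pde4d lies near the top of both with 101 distal sites and 10 open promoters, and Pde4a lies on the dashed line.

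Within both long genes the distal sites were unevenly placed. In Pde4d the first 3 intervals, from promoter 1 to promoter 4, covered 204.2, 206 and 256.1 kb and held 6, 7 and 5 distal sites, which is 1.95 to 3.40 per 100 kb. From promoter 4 to promoter 7 the intervals held 16, 17 and 14 sites, which is 9.37 to 11.1 per 100 kb. The interval from promoter 10 to the CpG-rich short-form promoter 11 held 17 sites in 145.9 kb. In Pde4b the intervals from promoter 1 to promoter 3 held 4 and 5 sites over 167.2 and 166.8 kb. The 99.7 kb between promoter 5 and the strong short-form promoter 6 held 15, and the 50 kb after the gene end held 10. The 3′ portions were not evenly dense. Pde4d held 2 sites in the 71.1 kb from promoter 9 to promoter 10 (2.81 per 100 kb), 1 from promoter 11 to promoter 12, 0 from promoter 12 to promoter 15 and 1 from there to the gene end. Pde4b held 0 from promoter 7 to the gene end. In both genes the intervals between the first 3 promoters were sparse, and in Pde4d the intervals from promoter 4 to promoter 7, in the middle of the gene among long-form promoters, were dense.

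**Figure D3:**
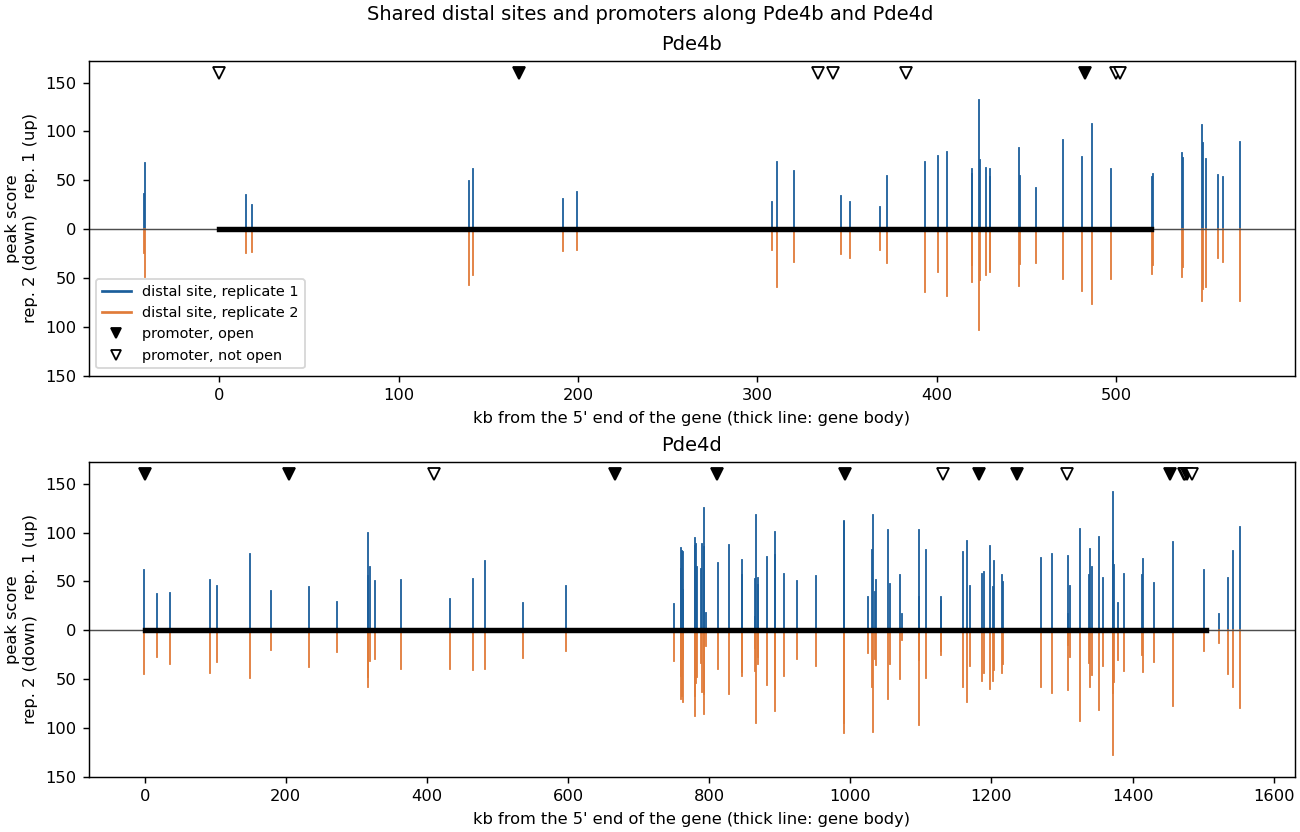
Shared distal sites along Pde4b and Pde4d, with distance in kb from the gene's 5′ end on the horizontal axis and score on the vertical axis, replicate 1 upward and replicate 2 downward. Triangles are promoters, filled where open, and the thick line is the gene body. Sites are sparse between the first 3 promoters of both genes and denser from promoter 4 of each, with sparse intervals further 3′ as well, and the tallest bar is 132 and 103 in Pde4b and 141 and 128 in Pde4d.

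The strongest distal sites of Pde4b and Pde4d both lay ahead of a short-form promoter and shared sequence. In Pde4b the site was chr4:102510996-102511165, with scores of 132 and 103. In Pde4d it was chr13:109822476-109822645, with 141 and 128. In both replicates this was the highest score among the distal and own-promoter sites of the 4 genes. The Pde4b site lay between shared coding exons 4 and 5 of 14, and promoter 6 was the next promoter, 58.9 kb away. The Pde4d site lay between shared coding exons 6 and 7 of 16, and promoter 11 was the next, 80.5 kb away. In both genes this next promoter starts the longest short form and was open. The nearest TSS, however, lay 5′ of each site, at Pde4b promoter 5 (40.6 kb) and Pde4d promoter 10 (65.25 kb). Neither of these starts a coding transcript and neither had a peak. Which promoter, if any, the sites act on was not tested.

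The central 150 bp of both sites are printed with 8 motifs for distal sites in capitals, namely the AP-1 motif TGANTCA, the response element TGACGTCA, the steroid receptor palindrome, the NFI palindrome, the C/EBP motif TTGCNNAA, the forkhead motif TGTTTAC, the TEAD motif GGAATG and the ETS motif CCGGAAG. The lower pair are the 36 bases around the match, where capitals mark the run of bases that both genes share.
Pde4b distal site 1, chr4:102511005-102511154: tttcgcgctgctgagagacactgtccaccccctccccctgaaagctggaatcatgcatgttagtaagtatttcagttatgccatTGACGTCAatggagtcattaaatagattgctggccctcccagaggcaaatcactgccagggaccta
Pde4d distal site 1, chr13:109822485-109822634: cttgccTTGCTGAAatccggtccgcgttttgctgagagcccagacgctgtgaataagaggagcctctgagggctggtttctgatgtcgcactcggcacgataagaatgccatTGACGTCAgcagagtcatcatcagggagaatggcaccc
Pde4b core, chr4:102511074-102511109: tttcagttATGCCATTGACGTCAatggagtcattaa
Pde4d core, chr13:109822582-109822617: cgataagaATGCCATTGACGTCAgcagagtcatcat

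Each site held a full TGACGTCA, at the 3′ end of a shared run of 15 bases. Of all 119585 shared distal sites of the genome, 0.415% held this element, as did 1 of 42 for Pde4b and 1 of 101 for Pde4d. The 15-base run occurred at 2 places in the 21 chromosomes on either strand, and 2 of the 161159 shared sites held it, namely these. Local alignment matched 22 of 25 bases (88.0%), and 24 of the 36 bases printed above are identical without gaps. The match was noticed after the sequences were seen. Among 11409 pairs of sites from different Pde4 genes it ranked 6 by alignment score, tied with 2 others. The 5 pairs above it and the 2 tied with it lay wholly in repeat-masked bases, whereas this pair had 0% repeat-masked bases. It was not alone in that. The pair ranked 9, Pde4b distal site 8 with Pde4d distal site 43, also had 0%. Its alignment score was 34, beside 35 here, with 42 identical bases, 6 mismatches and 7 gap bases. In windows of 1000 bp around the strongest sites, the local alignment again covered only 25 bases, 22 of them identical.

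Counts of the other motifs were small. TTGCNNAA was found in 18 of the 101 Pde4d distal sites (17.8%) beside 12.2% of all distal sites, in 3 of 42 for Pde4b, and in 0 of 13 for Pde4a and 0 of 14 for Pde4c. In Pde4b the ETS motif CCGGAAG was found in 2 of 42 sites (4.76%) beside 1.39% of all, and the NFI palindrome in 1 (2.38%) beside 0.12%. TGANTCA was found in 13 Pde4d sites (12.9%) beside 10.35%. The steroid receptor palindrome was found in none of the 170 distal sites of the 4 genes, beside 0.723% of all.

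The next strongest distal sites, ordered by the mean rank of both scores, were placed differently in the genes. In Pde4d all of the first 5 lay in the gene body. After the first, the scores were 118 and 104, then 118 and 95 at a site 8.90 kb from the microRNA gene Mir582, which lies within Pde4d, then 111 and 105, and last 125 and 86. In Pde4b the second (108 and 77) lay 4.28 kb past promoter 6, and the other 3 lay after the gene end, with scores from 88 to 107 in replicate 1 and from 61 to 74 in replicate 2. In Pde4a and Pde4c most of the first 5 lay outside the gene and nearer to the TSS of another gene. The strongest scored 116 and 111 near Gm16754 for Pde4a and 129 and 105 near Rab3a, a secretory vesicle gene, for Pde4c. Position alone assigns no distal site to a gene.

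**Figure D4:**
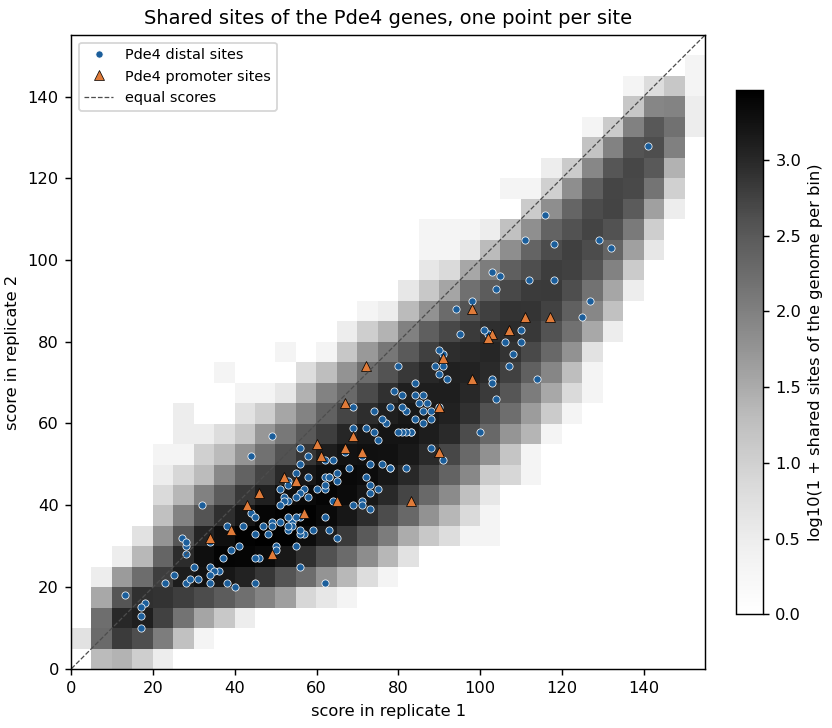
Score in replicate 2 against score in replicate 1 for each shared site, with Pde4 distal sites as blue circles, Pde4 promoter sites as orange triangles and all shared sites of the genome as grey shading (log10 of 1 plus the number per bin). Most points lie under the dashed line of equal scores, as do most sites of the genome, and the strongest Pde4 site is at 141 and 128.

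Near each gene the scores were higher in replicate 1 for most sites. The median log2 ratio of replicate 1 to replicate 2 over the shared sites near each gene was 0.32 for Pde4a, 0.45 for Pde4b, 0.38 for Pde4c and 0.38 for Pde4d, beside 0.45 for all shared sites (quartiles 0.27 and 0.65). Peaks seen in 1 library alone were not equally weak at the 4 genes. Those of replicate 1 alone had median scores of 43 at Pde4a, 34.5 at Pde4b and 47 at Pde4c, beside 50 for all its peaks. Those of replicate 2 alone numbered only 3, 2 and 1 there, with medians of 38, 26 and 45, beside 43 for all its peaks. Near Pde4d, 75 peaks of replicate 1 alone had a median score of 37 and 18 of replicate 2 alone had 23.5. Its 101 shared distal sites had medians of 60 and 44. The sets differ in kind, since the peaks of 1 library alone were not limited to distal ones.

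The other genes of cyclic AMP signalling were widely open as well. Of 54 genes chosen for the pathway, 52 (96.3%) had an open promoter, beside 68.5% of all protein-coding genes. The list was chosen with earlier results of these data known. All 12 other phosphodiesterase genes were open, and the strongest promoter scores were 121 and 119 for Pde8a, 130 and 97 for Pde7b and 125 and 102 for Pde7a, which encode cyclic AMP-specific enzymes. Of 20 genes for cyclases, G proteins and receptors 19 were open, all but the beta-3 adrenergic receptor gene Adrb3. The stimulatory G protein gene Gnas scored 126 and 109 and the prostaglandin E receptor gene Ptger4 120 and 104.

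Downstream of cyclic AMP, 15 of 16 genes for protein kinase A, Epac and anchoring proteins were open, all but the anchoring protein gene Akap6. The regulatory subunit gene Prkar1b scored 143 and 135, the catalytic subunit gene Prkaca 145 and 127 and the anchoring protein gene Akap13 137 and 114. All 6 genes of CREB factors and co-activators were open, with 143 and 128 at Creb1, 137 and 131 at Crem and 144 and 121 at Crtc2. These are the highest scores of the list, so the Pde4 genes were set beside all 52 open list genes. Of these, 20 scored higher than Pde4b (117) in replicate 1 and 22 scored higher (88) in replicate 2. For Pde4d (111 and 86) the numbers were 21 and 22, for Pde4c (98 and 71) 30 and 32, and for Pde4a (90 and 53) 36 and 45. Of the list's 213 promoters 91 (42.7%) were open. No list gene had more than 5 open promoters, a number reached by Gnas and Akap13, or more than 41 distal sites, beside 10 and 101 in Pde4d.

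Genes most like each member were sought by percentile ranks over all protein-coding genes of 5 measures, namely the number and share of open promoters, the strongest promoter score in each replicate and the number of distal sites, over the 2 libraries. Closest to Pde4a were Kcnip3 and Fgd3, at distances of 4.40 and 6.08 percentile points. Closest to Pde4b were Cacna1a (3.50) and Patj (3.68), each with 2 open promoters and scores of 118 and 91 or 117 and 93. Closest to Pde4c were Espn (3.95) and Neu2 (5.06). Closest to Pde4d were Sept9 (2.64) and Abr (2.99), each with 6 of 9 promoters open and with 37 and 29 distal sites, so even the nearest genes had fewer of both.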

How the data were processed

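Each replicate came with a peak file and a hotspot file. Per the labels they are on assembly mm10. Names and versions of aligner and caller are not given in the sources used here. Column 7 of the deposited peak files is a score, a whole number from 1 to 150 that does not exceed the 150 bp peak width and whose meaning and scale are not given in the sources used here. Column 9 of the deposited hotspot files is −log10 of a q-value, capped at 100. Depth was not given, so no value was scaled by it and its precision cannot be stated.

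Python 3.11.15, numpy 2.4.6, scipy 1.17.1 and pysam 0.24.0 were used, with Biopython 1.88 for alignment (match 2, mismatch -3, gap opening -5, gap extension -2). Gene models were GENCODE M21 and the sequence was RefSeq's GRCm38.p6. Peaks overlapping between replicates by at least 1 bp were merged into shared sites. Members and lists were chosen with earlier results of these data known. Named were the 4 genes, their promoters, the 5 strongest distal sites of each, the 3 strongest and all unopened genes per pathway role and the 2 most alike genes. One gene that this rule names is not reported here. Counting was tested on simulated peaks. No test was made, as there was 1 group. Labels do not say that replicates were different animals, so their spread may be technical.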

Additional observations from a re-analysis of the deposited data

How the results depend on the processing

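Counts were recomputed under 16 other settings, 2 of them chosen after seeing the data. The 19 open Pde4 promoters of 31 became 11 of 23 with RefSeq TSSs and 15 of 24 with protein-coding transcripts only. They became 13 with peaks above the median score, 15 with a window of 250 bp and 20 with 1000 bp. Under the 2 settings chosen later they were 30 of 45 with each TSS counted on its own and 9 where the site had to cover the TSS. They ranged from 19 to 20 with 1 replicate left out. The 170 distal sites became 96 with peaks above the median score of each list, and ranged from 191 without replicate 1 to 300 without replicate 2, where peaks of a single list were counted. The 228 shared sites within 50 kb became 144 above the median score, and ranged from 256 to 390 with 1 replicate left out. For Pde4d, promoters open fell to 3 with RefSeq TSSs, 3 where the TSS was covered and 7 with a window of 250 bp. For Pde4b, 1 promoter was open above the median score and 4 of 13 with each TSS on its own. Above the median score Pde4a had 2 open promoters and Pde4c 1, and Pde4c had 1 where the TSS was covered and 6 of 7 with each TSS on its own. Distal sites counted by nearest TSS fell from 13 to 5 for Pde4a and from 14 to 4 for Pde4c, and those of Pde4c became 9 within 20 kb and 29 within 100 kb. The 52 open genes of the cyclic AMP list ranged from 48 to 53 over the settings applied to the list, and from 52 to 53 with 1 replicate left out. The list was not counted under the 2 settings chosen later, so its dependence on them is not known. No paired analysis was possible because the study has 1 group. Depth was not given, so a promoter with no peak may be open below the calling limit.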
